A study of Mus musculus with 28 samples.

Results

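Kidneys of female mice carrying the Q form of aquaporin-3 were compared with kidneys of female mice carrying its R form. Q is the labels' name for a mimetic of acetylated lysine, and R for a mimetic of the deacetylated lysine. The comparison used 8 of the 28 libraries of polyadenylated RNA in the series, namely 5 female Q and 3 female R libraries chosen by genotype and sex label, and all 17573 expressed genes of 56748 in the count table. The repeat that the choice asked for left out female Q replicate 5. Female wild-type (WT) mice (5 libraries), male Q (5) and male R (5) served as values beside it. Male WT libraries (5) were set against female WT only to pick genes that differ between the sexes. The filter and the estimate of the spread used all 28 libraries. All mice had received no treatment, ate pelleted food and drank tap water, and their kidneys were taken between zeitgeber hours 2 and 5, freed of the capsule and frozen whole. Both groups compared carry an edited Aqp3 gene, so neither is an unedited control. Strain, age, the edited residue and how the alleles were made are not given in the sources used here. Whether every library is from its own animal is not stated, so p-values measure only the spread between libraries, which may in part be technical.

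Aquaporin-3 is a channel for water and glycerol on the basolateral side of principal cells in the collecting duct. Water enters these cells through aquaporin-2, which vasopressin brings to the apical membrane, and leaves them through aquaporin-3 and aquaporin-4. Acetylation removes the positive charge of a lysine, and glutamine (Q) and arginine (R) are commonly used in its place to imitate the acetylated and the unmodified residue. Lysine 282, near the end of the cytosolic tail, has been described as an acetylation site of this channel. The reference sequence of that end of the tail is shown because it is where such an exchange would lie. It covers codons 271 to 292 of 292, on the minus strand of GRCm38 at chr4:41093537-41093602, in exon 6 of 6 of its transcript in GENCODE M21, all coding. Capitals mark codon 282 (AAG, lysine), and the coding sequence holds 5 lysine codons in all.
Aqp3: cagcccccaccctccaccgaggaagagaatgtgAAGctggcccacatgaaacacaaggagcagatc
A count per gene does not resolve a codon, and the genotypes were therefore not checked here.

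Total counts were 16159881 to 20178003 in female Q and 15385005 to 20451510 in female R, and pairwise correlations of log2 levels among the 8 libraries were 0.965 to 0.985. Each of the 8 had 214 to 435 CPM (counts scaled to 1000000 per library after TMM) of Xist, the RNA that silences an X chromosome, and 0.928 to 2.47 CPM summed over 5 Y-linked genes. Female Q replicate 5 stood apart. Mitochondrially encoded genes held 3.94% of its counts, against 10.8 to 11.6% in the other female Q libraries and 10.9 to 12.1% in female R. It had counts for 27513 genes, against 23507 to 24483 in the other 7 libraries, and lay at 44.5 on the first principal component (39.1% of the variance), where the others lay between -14.5 and 13.6. The mean mitochondrial share was 9.71% ± 3.24 in Q (SD, n = 5) and 11.6% ± 0.616 in R (SD, n = 3), a difference of -1.84 percentage points (exact permutation test, two-sided, p = 0.482, with 0.0179 the smallest p that 56 arrangements allow). Without replicate 5 the difference was -0.401 points (exact permutation p = 0.286, 0.0286 the smallest possible).

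Aqp3 itself was read at 108, 122, 101, 124 and 101 CPM in female Q replicates 1 to 5 and at 133, 118 and 121 CPM in female R. The groups overlapped, since Q replicates 2 and 4 lay above R replicate 2. The means were 111 ± 11.1 CPM (SD, n = 5) and 124 ± 7.78 CPM (SD, n = 3). The log2 fold change of Q against R was -0.16 (SE 0.116, 95% interval -0.40 to 0.08, edgeR adjusted p = 0.998). It was -0.12 without Q replicate 5 and between -0.20 and -0.11 as single libraries were left out. A difference in Aqp3 RNA of 2-fold in either direction lies outside that interval.

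No single gene passed the test between female Q and female R. With edgeR's quasi-likelihood test, 0 genes (0%) were higher and 0 (0%) lower in Q at an adjusted p under 0.05, and the smallest adjusted p was 0.998. DESeq2 and every other setting tried also called 0 genes. At an unadjusted p under 0.05 there were 532 genes (3.03% of those tested), 288 of them higher (1.64%) and 244 lower (1.39%) in Q, where 879 would be counted among as many genes that do not differ. DESeq2 gave 585 such genes. The edgeR count was 872 without Q replicate 4 and 333 without R replicate 2. Without Q replicate 5, 0 of 17506 genes (0%) were called, 2.12% had an unadjusted p under 0.05 and 49.8% an estimate above 0. With Q replicates 1 to 3 alone those shares of 17469 genes were 0%, 2.93% and 50%. All 5 Q libraries lay above all 3 R libraries in 247 genes (1.41%) and below them in 249 genes (1.42%). The estimate was above 0 in 49.5% of genes and below 0 in 50.5%, with a median of -0.00 on the log2 scale.

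How small a difference the comparison could bound, with the spread estimated over all 28 libraries, depended on how abundant the gene was. Among the 9578 genes with a mean of at least 10 CPM, the median SE of the log2 fold change was 0.140, and 98.3% had a 95% interval that lay wholly within 2-fold. The share was 79.8% of the 4837 genes at 1 to 10 CPM and 7.09% of the 3158 genes under 1 CPM. An estimate beyond 2-fold was seen in 311 genes, of which 291 were under 1 CPM and 4 at 10 CPM or more. In the rarest class such estimates rest on few counts, as the widening cloud at the left of the plot of all tested genes shows.

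**Figure D1:**
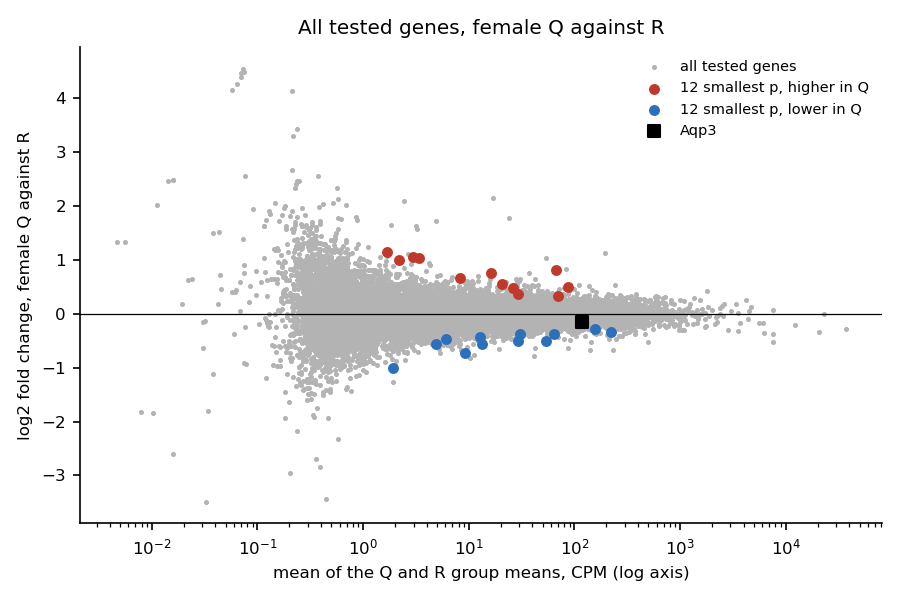
Log2 fold change of female Q against female R for all 17573 tested genes, against the mean of the 2 group means in CPM (log axis). Grey points are genes, red and blue points the 12 with the smallest p on each side of 0 among genes of at least 1 CPM, and the black square is Aqp3 (-0.16). The cloud narrows from left to right around 0, and 0 genes passed the adjusted test.

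Of the 12 aquaporins, 9 were expressed highly enough to be tested. The estimate was below 0 in 6 of them, with a median log2 fold change of -0.16, and 0 passed the test. Aqp1, through which proximal tubules and thin limbs take up water, was 979, 840, 931, 1060 and 837 CPM in female Q and 1151, 1174 and 1113 CPM in female R. All 5 Q libraries lay below all 3 R libraries. Its means were 929 ± 94.9 CPM (SD, n = 5) and 1146 ± 30.9 CPM (SD, n = 3), a log2 fold change of -0.30 (SE 0.109, 95% interval -0.53 to -0.08, adjusted p = 0.998). Without Q replicate 5 it was -0.26. Aqp1 was the only aquaporin with an unadjusted p under 0.05. Female WT had 1102 ± 123 CPM (SD, n = 5), and the male log2 fold change of Q against R was -0.19 (SE 0.0954).

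Of the other collecting duct channels, Aqp2 was 312, 525, 209, 347 and 324 CPM in Q and 492, 247 and 436 CPM in R. The lowest and the highest values were both Q libraries, and the log2 fold change was -0.19 (SE 0.281), or 0.0084 without R replicate 1. Aqp4, the other basolateral water channel of principal cells, was 65.7, 47.9, 77.0, 56.8 and 63.9 CPM in Q and 58.8, 94.8 and 74.7 CPM in R, a log2 fold change of -0.29 (SE 0.301, -0.10 without R replicate 2). Here too the groups overlapped. Aqp6, an intracellular channel of intercalated cells, was 60.4 to 124 CPM in Q and 53.9 to 78.1 CPM in R, a log2 fold change of 0.32 (SE 0.237, 0.15 without Q replicate 2).

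Aqp7, which carries glycerol as well as water, was 15.6 to 17.7 CPM in Q and 17, 21.2 and 21.6 CPM in R. R replicate 1 lay among the Q libraries, and the log2 fold change was -0.25 (SE 0.125). Aqp11, an intracellular channel of the proximal tubule, was 48.2 to 65.1 CPM in Q and 60.9 to 66.3 CPM in R, a log2 fold change of -0.15 (SE 0.107, -0.09 without Q replicate 1). Aqp5 and Aqp8 were 0.0613 to 1.22 CPM in the 8 libraries, with log2 fold changes of 0.12 (SE 0.690) and 0.02 (SE 0.466) whose sign turned with single libraries. Mip, Aqp9 and Aqp12 were too low to be tested, and Aqp12 had 0 counts in all 8 libraries.

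**Figure D2:**
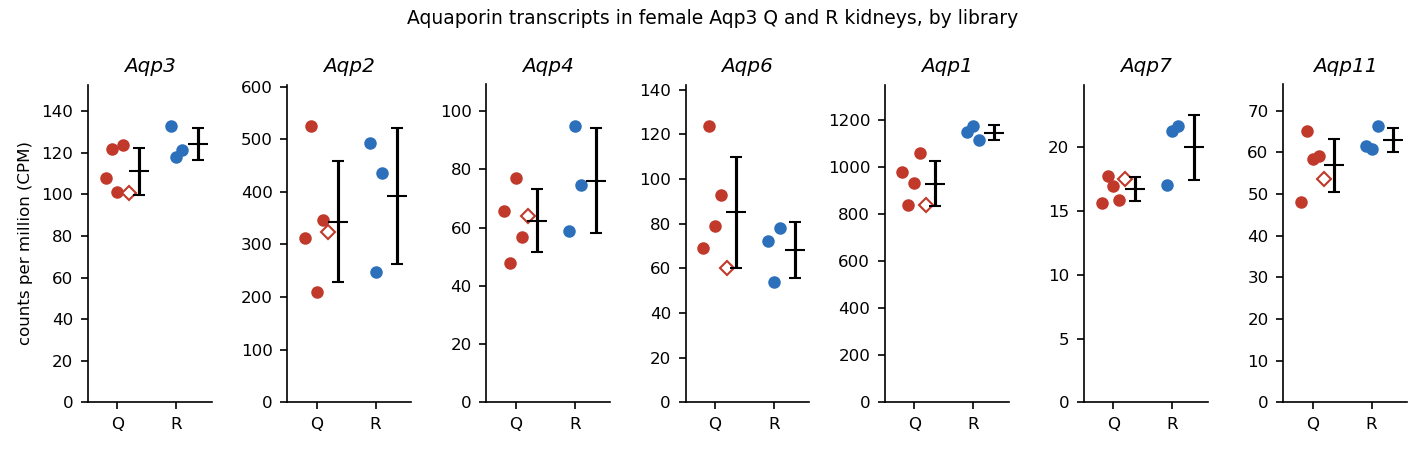
CPM of 7 aquaporins in each female Q (red) and female R (blue) library, every axis starting at 0, with the open diamond for Q replicate 5 and black marks for the mean ± SD. Only in the Aqp1 panel, of those drawn, do all Q points (837 to 1060) lie below all R points (1113 to 1174).

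The genes with the smallest p were examined next, 12 on each side of 0, among genes with a mean of at least 1 CPM in either group. None of the 24 passed the test, and each had an edgeR adjusted p of 0.998. They were picked for their values in these libraries, so their direction and their separation are a description. In 8 of the 12 on the higher side all Q libraries lay above all R libraries, and in 8 of the 12 on the lower side all lay below.

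The 3 higher genes with the smallest p were Chst15, Foxd2 and Tmem119. Chst15, which adds sulfate to chondroitin chains of the matrix, was 28.9, 30.7, 36.5, 28.3 and 29 CPM in Q and 22.4, 20.8 and 22.6 CPM in R. The groups did not overlap, and the log2 fold change was 0.48 (SE 0.127). Foxd2, a forkhead transcription factor, was 3.23, 3.0, 2.50, 2.74 and 3.08 CPM in Q and 1.07, 1.35 and 1.94 CPM in R, a log2 fold change of 0.99 (SE 0.273). Tmem119, a membrane protein known from microglia and bone-forming cells, was 27, 20.1, 23, 15.2 and 17 CPM in Q and 12.4, 9.26 and 14.8 CPM in R. Its lowest Q library and its highest R library were close together, and the log2 fold change was 0.75 (SE 0.212).

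Ccn2, a secreted matricellular protein also known as connective tissue growth factor, was 89.9, 71.3, 100, 69.0 and 91.5 CPM in Q and 39.8, 55.3 and 49.4 CPM in R. Every Q library lay above every R library, with a log2 fold change of 0.81 (SE 0.245, 95% interval 0.31 to 1.31). Larp6, which binds collagen messenger RNAs, was 1.77 to 3.13 CPM in Q and 0.733 to 1.53 CPM in R, a log2 fold change of 1.14 (SE 0.334). Grap, an adaptor of receptor tyrosine kinase signalling, was 9.29 to 10.7 CPM in Q and 5.74 to 7.62 CPM in R, a log2 fold change of 0.65 (SE 0.189). Ngfr, the p75 neurotrophin receptor, was 2.67 to 6.73 CPM in Q and 2.05 to 2.51 CPM in R, a log2 fold change of 1.03 (SE 0.336). None of these 3 overlapped between the groups.

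The remaining higher genes were Lrrc58 (log2 fold change 0.32, SE 0.103), Taf13, a subunit of the general transcription factor TFIID (0.37, SE 0.120), Rhob, a small GTPase of the cytoskeleton and endosomes (0.49, SE 0.161), the kinase gene Stk32c (1.06, SE 0.347) and Slc22a28, an organic anion transporter (0.56, SE 0.185). Of these only Lrrc58 did not overlap between the groups, with 67.7 to 82.8 CPM in Q and 54.1 to 67.0 CPM in R. Slc22a28 belongs to a family of near-identical genes, so how its reads were divided is uncertain. The value of Stk32c leaned on Q replicate 3, at 7.27 CPM against 2.28 to 4.81 CPM in the other Q libraries, and the log2 fold change was 0.73 without it.

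On the lower side Mcoln3, a cation channel of endosomes and lysosomes, had the smallest p. It was 12.2, 10.1, 11, 11.7 and 8.95 CPM in Q and 15.1, 18.2 and 14.7 CPM in R, all Q below all R, with a log2 fold change of -0.56 (SE 0.162). Ace, the angiotensin-converting enzyme, was 216, 197, 199, 228 and 139 CPM in Q and 250, 230 and 259 CPM in R. All Q libraries lay below all R libraries, Q replicate 4 narrowly, and the log2 fold change was -0.33 (SE 0.118), or -0.23 without Q replicate 5. C8a, the alpha chain of complement component C8, was 46.1, 28.1, 48.9, 54.3 and 42.4 CPM in Q and 62.8, 67.0 and 58.7 CPM in R, a log2 fold change of -0.51 (SE 0.179). The Q libraries again lay below the R libraries.

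Slc22a4, a carrier of ergothioneine and carnitine, was 50.8 to 68.1 CPM in Q and 59.1 to 82.0 CPM in R, a log2 fold change of -0.37 (SE 0.130), with overlap. Atp8b4, a lipid flippase, was 0.755 to 2.23 CPM in Q and 1.47 to 3.25 CPM in R (-1.01, SE 0.330), also with overlap. Col23a1, a transmembrane collagen, was 2.41 to 5.01 CPM in Q and 5.74 to 6.01 CPM in R (-0.56, SE 0.184), without overlap. Lrig2, a regulator of growth factor receptors, gave a log2 fold change of -0.44 (SE 0.141) and Sowahb, an ankyrin repeat protein, one of -0.37 (SE 0.112).

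The last 4 were the corepressor gene Tle2 (log2 fold change -0.50, SE 0.166), the arginine-citrullinating enzyme gene Padi2 (-0.73, SE 0.256), the zinc finger gene Zfp354c (-0.47, SE 0.166) and Plpbp, which binds pyridoxal phosphate (-0.29, SE 0.103). Padi2 overlapped between the groups and the other 3 did not. Without Q replicate 5 the log2 fold changes ran from 0.29 to 1.14 on the higher side and from -1.0 to -0.21 on the lower side.

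**Figure D3:**
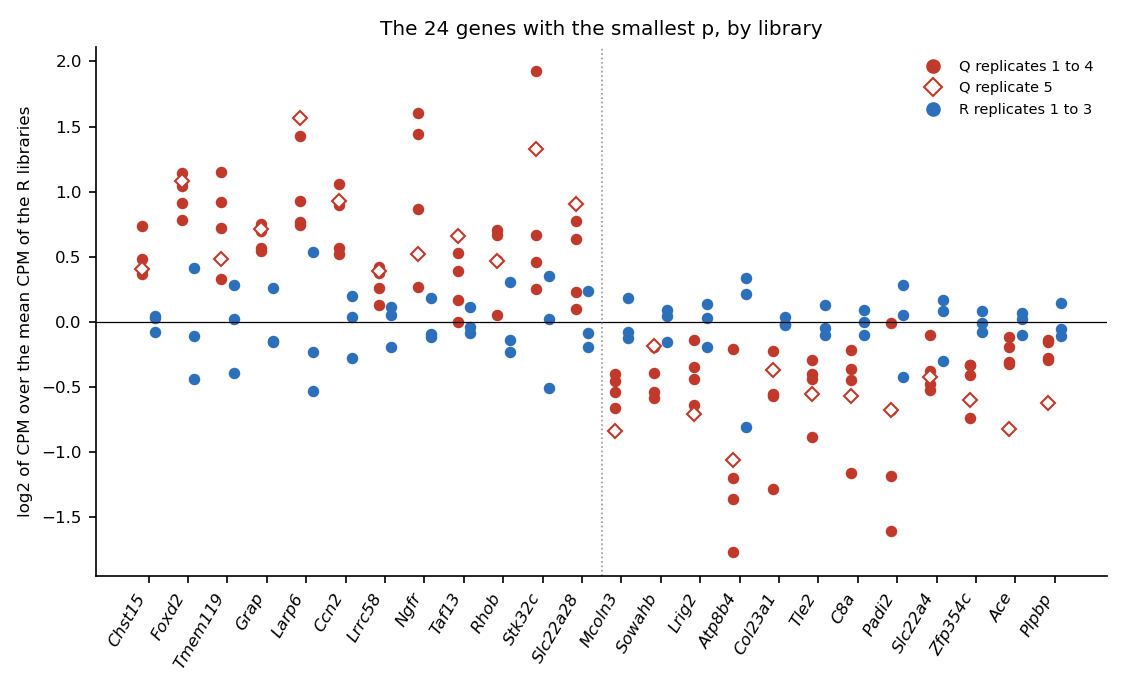
For each of the 24 genes with the smallest p, the log2 of the CPM of each library over the mean CPM of the R libraries, with Q replicates 1 to 4 in red, Q replicate 5 as an open diamond and R replicates 1 to 3 in blue. The dotted line parts the genes higher in Q from those lower in Q, and 8 on each side show no overlap of red and blue. Chst15 and Foxd2 show no overlap, while Stk32c and Slc22a4 do.

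Genes of the collecting duct and of urine concentration were read as lists, in none of which any member passed the test. Counts of members with an unadjusted p under 0.05 stand against 3.03% of all genes, and counts above 0 against 49.5%. Single libraries weigh on these values, and where 1 refit of a median is given, another may have moved it the other way. Of the 119 genes picked for naming, 62 had a log2 fold change that moved by over 1.5 times, or turned its sign, when some 1 of the 8 libraries was left out. Of 11 tested principal cell genes 6 had an estimate below 0, with a median log2 fold change of -0.05. That median was -0.11 without Q replicate 4, 0.00 without Q replicate 5 and 0.01 without R replicate 1. In bulk tissue, fewer cells of a type and less RNA per cell cannot be told apart. Scnn1b, a subunit of the epithelial sodium channel, was 48.3, 64.9, 51.3, 54.9 and 32.7 CPM in Q and 52.3 to 59.2 CPM in R, a log2 fold change of -0.15 (SE 0.145) that was -0.03 without Q replicate 5. Elf5, a transcription factor of principal cells, was 3.09 to 3.58 CPM in 4 Q libraries, 7.17 CPM in Q replicate 2 and 2.28 to 3.62 CPM in R.

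Intercalated cells, which secrete acid or base, were near balance. The estimate was above 0 for 11 of 18 genes, with a median of 0.02. That median was -0.04 without Q replicate 2, -0.01 without Q replicate 4 or R replicate 3, and 0.07 without Q replicate 1. Slc4a9, the sodium bicarbonate cotransporter of the base-secreting type, was 82.7, 64.7, 81.5, 94.0 and 59.5 CPM in Q and 84.5, 110 and 92.6 CPM in R, a log2 fold change of -0.32 (SE 0.158, -0.21 without R replicate 2). Insrr, an alkali-sensing receptor, was 20.2 to 35.0 CPM in Q and 34.0 to 35.4 CPM in R (-0.28, SE 0.155, -0.18 without Q replicate 5). Car15, a carbonic anhydrase, was 1.17 to 2.17 CPM in Q and 1.72 to 2.56 CPM in R (-0.62, SE 0.315). All 3 overlapped between the groups. They were named for the smallest p of the list in these libraries, and their direction is not that of most members. Aqp6, described above, is on the list too, with a log2 fold change of 0.32.

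Of 15 tested genes of vasopressin signalling and urine concentration 8 had an estimate below 0 (median -0.08, or 0.00 without Q replicate 3), and 0 passed. Slc14a2, which encodes urea transporters of the inner medulla, was 63.2, 68.2, 55.0, 62.1 and 39.4 CPM in Q and 100, 54.2 and 65.2 CPM in R. R replicate 1 alone stood above the Q libraries, and the log2 fold change was -0.35 (SE 0.223), or -0.05 without it. Akap7, an anchor of protein kinase A, gave a log2 fold change of 0.19 (SE 0.151, 0.08 without Q replicate 5) and Ptger4, a prostaglandin E2 receptor, one of 0.29 (SE 0.214).

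Osmolyte and tonicity genes had an estimate below 0 for 9 of 13 members (median -0.16, from -0.20 without Q replicate 2 to -0.05 without R replicate 1). Slc6a6, the taurine transporter, was 188, 150, 177, 238 and 127 CPM in Q and 229, 257 and 205 CPM in R, a log2 fold change of -0.39 (SE 0.189) that was -0.29 without Q replicate 5. Slc38a2, an amino acid carrier, was 48.9 to 59.0 CPM in Q and 58.8 to 71.9 CPM in R (-0.26, SE 0.16, -0.17 without R replicate 3). Sgk1, a kinase that responds to both tonicity and steroids, went the other way and is described with the steroid genes.

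Glycerol is the other solute that aquaporin-3 carries. Of 15 tested genes of glycerol handling 13 had an estimate below 0, with a median of -0.07 (-0.14 without Q replicate 1), and 0 passed. Gk5, a glycerol kinase, was 13.1, 8.34, 12.0, 11.7 and 11.9 CPM in Q and 14.3, 18.4 and 14.3 CPM in R. All Q libraries lay below all R libraries, with a log2 fold change of -0.45 (SE 0.183). Gpd1l, a relative of glycerol-3-phosphate dehydrogenase, was 51.9 to 62.8 CPM in Q and 58.3 to 70.0 CPM in R (-0.17, SE 0.118, -0.09 without R replicate 2). Aqp3 and Aqp7 also belong to this list.

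Enzymes that place or remove acetyl groups on lysine were close to even. The estimate was below 0 for 18 of 28 (median -0.04, from -0.07 without R replicate 2 to -0.02 without R replicate 1), and 0 had an unadjusted p under 0.05. Sirt3, the main deacetylase of mitochondria, was 74.2, 68.6, 67.3, 78.7 and 50.1 CPM in Q and 70.9, 76.5 and 82.8 CPM in R, a log2 fold change of -0.18 (SE 0.112) that was -0.09 without Q replicate 5. Sirt2, a cytosolic deacetylase, was 87.2 to 91.0 CPM in Q replicates 1 to 4, 55.8 CPM in replicate 5 and 89.2 to 96.5 CPM in R. Kat6b, a histone acetyltransferase, gave a log2 fold change of -0.41 (SE 0.258) that was -0.21 without R replicate 2.

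Along the rest of the nephron, most epithelial marker genes had estimates below 0, and none passed. In the proximal tubule, the main site of reabsorption, this held for 15 of 18 genes with a median of -0.16 (-0.24 without R replicate 1, -0.10 without Q replicate 5 and -0.08 without R replicate 3). Slc27a2, a fatty acid carrier and acyl-CoA synthetase, was 2439, 2262, 2599, 2772 and 2597 CPM in Q and 2880, 3472 and 3005 CPM in R. The groups did not overlap, and the log2 fold change was -0.30 (SE 0.108). Slc3a1, a subunit of the cystine transporter, was 437 to 540 CPM in Q and 545, 689 and 583 CPM in R, again without overlap (-0.28, SE 0.135), or -0.18 without R replicate 2. With Aqp1 these were the 3 of 18 with an unadjusted p under 0.05. The summed level of the list was 16864 CPM in Q replicate 5, 19335 to 21265 CPM in the other Q libraries and 20611 to 22514 CPM in R.

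In the thin limb and inner medulla 7 of 12 genes had an estimate below 0. The median was -0.10, from -0.24 without R replicate 2 to 0.03 without R replicate 1. Corin, a protease that activates natriuretic peptide, was 5.61, 4.73, 6.46, 6.59 and 3.92 CPM in Q and 8.11, 7.97 and 6.12 CPM in R (log2 fold change -0.43, SE 0.176), and Pde1a, a phosphodiesterase, had one of -0.22 (SE 0.118, -0.13 without R replicate 2). In the thick ascending limb, which dilutes the urine, the estimate was below 0 for 10 of 12 genes. The median was -0.15, from -0.20 without Q replicate 4 to -0.08 without Q replicate 5. Egf, the epidermal growth factor precursor, was 1703, 1258, 1601, 1687 and 1655 CPM in Q and 1603, 2101 and 1946 CPM in R (-0.25, SE 0.166, -0.17 without R replicate 2). Kng2, a kininogen, gave a log2 fold change of -0.18 (SE 0.10, -0.11 without Q replicate 5) and Cldn16, a tight junction protein for magnesium and calcium, one of 0.27 (SE 0.163), or 0.13 without Q replicate 5.

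In the distal convoluted tubule 11 of 12 genes had an estimate below 0. That count was 8 without Q replicate 5 and 6 without R replicate 3. The median was -0.12, from -0.18 without R replicate 2 to -0.05 without Q replicate 5. Trpv5, the apical calcium channel, was 15.7, 16.1, 15.6, 18.1 and 8.67 CPM in Q and 17.8, 19.8 and 21.1 CPM in R. Q replicate 5 was the low value, and the log2 fold change of -0.40 (SE 0.210) was -0.25 without it. Wnk1, a kinase that controls the sodium chloride cotransporter, gave a log2 fold change of -0.21 (SE 0.129, -0.11 without R replicate 2). Pvalb, a calcium-binding protein, was the member above 0, at 39.9 to 81.6 CPM in Q and 32.9 to 40 CPM in R (0.54, SE 0.321), or 0.34 without Q replicate 5, the highest Q library.

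In the glomerulus, vessels and stroma the estimates leaned above 0. Of 14 genes of stroma, pericytes and matrix 13 were above 0, with a median of 0.25 (0.26 without Q replicate 5, 0.14 without R replicate 1 and 0.34 without R replicate 3), and 0 passed. Lum, which encodes the matrix proteoglycan lumican, was 1.96, 3.06, 2.97, 2.63 and 2.29 CPM in Q and 1.32, 1.59 and 1.76 CPM in R. The groups did not overlap (log2 fold change 0.73, SE 0.320). Col3a1, a fibrillar collagen, was 62.8, 65.8, 52.3, 44.3 and 66.3 CPM in Q and 32.9, 52.3 and 56.4 CPM in R (0.30, SE 0.166), or 0.10 without R replicate 1. Mgp, an inhibitor of matrix calcification, was 132 CPM in Q replicate 5, 59.2 to 79.1 CPM in the other Q libraries and 50.7 to 72.6 CPM in R. The summed level of the list was 431 to 533 CPM in Q, 343 to 438 CPM in R and 377 to 511 CPM in female WT.

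Of 12 endothelial genes 10 had an estimate above 0, with a median of 0.12 (0.15 without Q replicate 5 and 0.08 without Q replicate 4). Tek, the angiopoietin receptor, was 47.1, 52.5, 49.7, 51.7 and 46.9 CPM in Q and 35.5, 46.1 and 39.8 CPM in R, without overlap (log2 fold change 0.29, SE 0.109). Plvap, a protein of endothelial fenestrae, was 218 to 254 CPM in Q and 179 to 213 CPM in R, without overlap (0.25, SE 0.116). Robo4, a vascular guidance receptor, gave a log2 fold change of 0.20 (SE 0.116). Podocyte genes had an estimate above 0 for 7 of 10 members (median 0.04, or -0.01 without Q replicate 2). Wt1, the podocyte transcription factor, gave a log2 fold change of 0.20 (SE 0.185, 0.13 without Q replicate 2), Thsd7a one of 0.23 (SE 0.207) and Synpo, a protein of the podocyte cytoskeleton, one of 0.09 (SE 0.133, 0.04 without R replicate 2), or 0.17 without Q replicate 5.

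**Figure D4:**
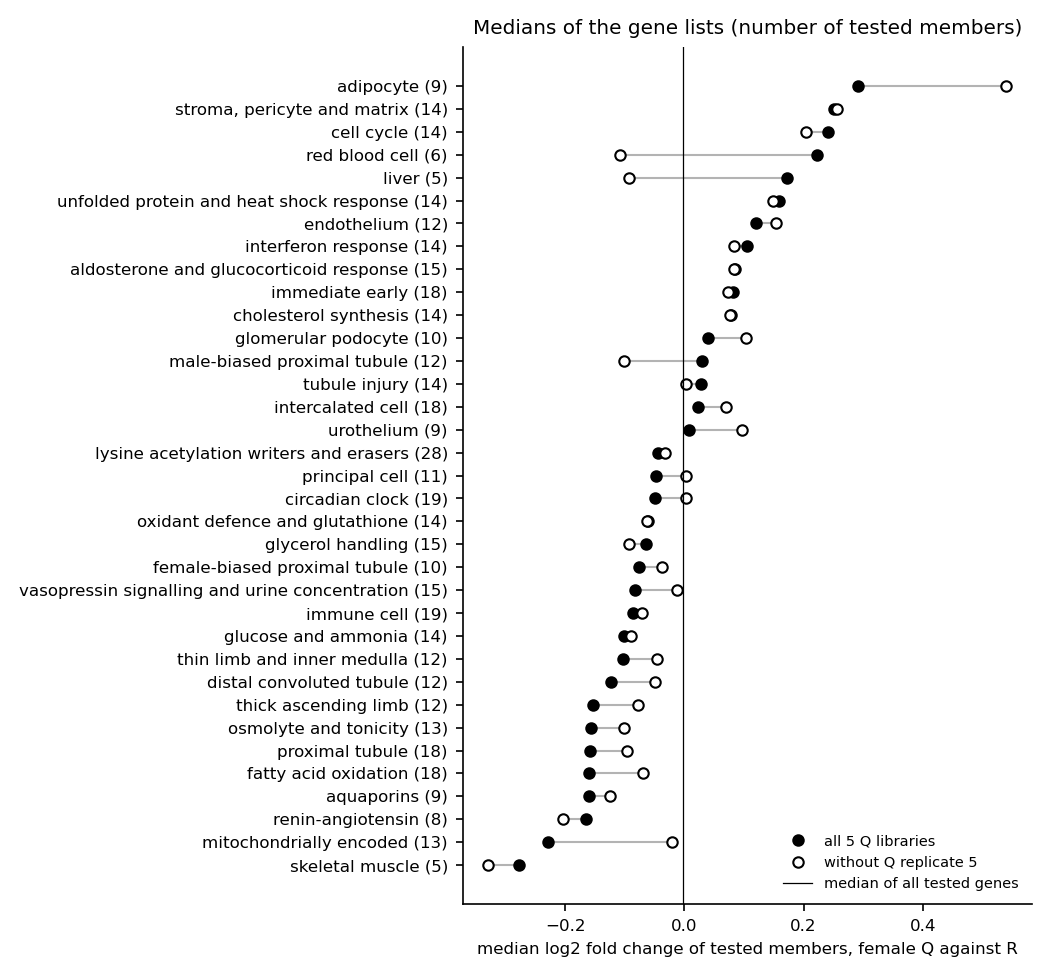
Median log2 fold change of female Q against female R over the tested members of each gene list (number in brackets), with all 5 Q libraries (filled) and without Q replicate 5 (open), against the median of all tested genes (line). Adrenal cortex, with 2 tested members, is not drawn. Without Q replicate 5 the stroma median is 0.26 in place of 0.25 (0.14 without R replicate 1, not drawn), while the red blood cell, liver and mitochondrially encoded lists shift toward or past 0, and 0 members of any list passed the test.

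Markers of cells that a whole kidney can carry along were read as a check on the tissue. Of 9 adrenal cortex genes 2 were tested, and Cyp11b1, Cyp11b2 and Cyp21a1 had 0 counts in all 8 libraries. Fdx1, an electron carrier that tubules express too, was 137 CPM in Q replicate 5, 63.7 to 73.4 CPM in the other Q libraries and 61.2 to 72.2 CPM in R. Red blood cell genes had an estimate above 0 for 5 of 6 tested members (median 0.22), and for 2 of 6 (median -0.11) without Q replicate 5, where Hbb-bt, a beta globin, was 59.0 CPM against 5.52 to 17.5 CPM in the other Q libraries. Globin genes are near-identical copies, so their counts are uncertain. Liver genes behaved alike, at 4 of 5 above 0 (median 0.17) and 1 of 5 (median -0.09) without Q replicate 5, in which Apoa1 was 5.04 CPM against 0.500 to 1.13 CPM in the other Q libraries.

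Adipocyte genes were above 0 for 7 of 9 tested members (median 0.29), with 4 of 9 (median -0.14) without Q replicate 2 and 3 of 9 (median -0.11) without R replicate 2. Their summed level was 71.2, 205, 118, 95.1 and 75.8 CPM in Q and 164, 48.6 and 67.2 CPM in R, and Cidec, a lipid droplet protein, was 0.951 to 8.67 CPM in Q and 0 to 6.25 CPM in R. Urothelial genes were above 0 for 5 of 9 (median 0.01), with 2 of 9 without Q replicate 2 and 3 of 9 without R replicate 2. Krt15, a keratin, was 3.55 to 7.5 CPM in Q and 3.22 to 3.94 CPM in R (log2 fold change 0.56, SE 0.269). Skeletal muscle genes were below 0 for 4 of 5 tested members (median -0.28, or -0.14 without R replicate 2).

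Of 19 immune genes 11 had an estimate below 0 (median -0.09, from -0.21 without Q replicate 2 to 0.13 without R replicate 2). S100a9, a calcium-binding protein of neutrophils, had the smallest p of all 17573 genes, at a mean under 1 CPM in both groups. It was 0.140, 0.445, 0, 0.101 and 0.280 CPM in Q and 1.37, 0.797 and 0.712 CPM in R. All Q libraries lay below all R libraries, with a log2 fold change of -2.32 (SE 0.601, 95% interval -3.55 to -1.10, adjusted p = 0.998). Itgam, an integrin of myeloid cells, was 0.112 to 0.389 CPM in Q and 0.285 to 1.07 CPM in R (-1.25, SE 0.521), or -0.67 without R replicate 1. Csf1r, the macrophage colony-stimulating factor receptor, was 49.3 to 67.0 CPM in Q and 59.2 to 69.3 CPM in R (-0.20, SE 0.0964). The summed level of the immune list was 374 to 613 CPM in Q and 441 to 474 CPM in R.

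Aldosterone and glucocorticoids set sodium transport in the distal nephron. Among their target genes the estimate was above 0 for 8 of 15 members (median 0.09, or -0.04 without Q replicate 2), and 0 passed. Tsc22d3, a glucocorticoid-induced leucine zipper protein, was 41.1, 41.4, 38.4, 25.2 and 39.2 CPM in Q and 23.5, 22.4 and 25.1 CPM in R. All Q libraries lay above all R libraries, although Q replicate 4 did so by a margin under the spread of R, and the log2 fold change was 0.65 (SE 0.230). Sgk1, the kinase that retains the epithelial sodium channel at the membrane, was 184, 95.5, 129, 48.2 and 82.9 CPM in Q and 59.3, 48.9 and 73.0 CPM in R. Q replicate 4 lay below all R libraries and the other Q libraries above them, and the log2 fold change was 0.84 (SE 0.323), or 0.56 without Q replicate 1. Zbtb16, a zinc finger protein induced by glucocorticoids, was 15.3 CPM in Q replicate 3, 1.17 to 4.39 CPM in the other Q libraries and 1.35 to 1.81 CPM in R, and its log2 fold change of 1.57 (SE 0.689) was 0.46 without that library.

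Renin-angiotensin genes had an estimate below 0 for 7 of 8 tested members (median -0.17, from -0.22 without R replicate 1 to -0.09 without R replicate 2). Beside Ace, described above, Mme, the peptidase neprilysin, was 264, 186, 255, 266 and 158 CPM in Q and 276, 352 and 275 CPM in R. The groups did not overlap, and the log2 fold change was -0.42 (SE 0.171), or -0.31 without Q replicate 5. Ace and Mme are brush border enzymes of the proximal tubule.

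Genes of stress and growth had estimates above 0 more often than below. Of 14 genes of the unfolded protein and heat shock response 12 were above 0 (median 0.16, from 0.07 without Q replicate 2 to 0.24 without Q replicate 4). Hspa5, the chaperone of the endoplasmic reticulum, was 652, 628, 713, 534 and 766 CPM in Q and 441, 558 and 575 CPM in R (log2 fold change 0.33, SE 0.209, 0.22 without R replicate 1), with overlap at Q replicate 4. Herpud1 gave a log2 fold change of 0.26 (SE 0.172, 0.15 without Q replicate 1) and Sdf2l1 one of 0.52 (SE 0.374, 0.28 without R replicate 2). Of 14 cell cycle genes 12 were above 0 (median 0.24, from 0.17 without Q replicate 3 to 0.33 without Q replicate 4). Cdk1, the mitotic kinase, was 1.36, 2.72, 1.75, 1.22 and 3.58 CPM in Q and 1.37, 0.797 and 1.19 CPM in R (0.90, SE 0.386), Top2a, a topoisomerase of dividing cells, was 1.77 to 5.71 CPM in Q and 1.66 to 2.70 CPM in R (0.73, SE 0.335), and Birc5 gave a log2 fold change of 0.72 (SE 0.456, 0.47 without R replicate 2). All 3 overlapped between the groups.

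Tubule injury genes were above 0 for 11 of 14 (median 0.03), but for 7 of 14 without Q replicate 5 and 5 of 14 without Q replicate 2. Cdkn1a, the cell cycle inhibitor p21, was 15.5, 13, 16.9, 7.40 and 11.3 CPM in Q and 11.2, 6.56 and 7.54 CPM in R (log2 fold change 0.60, SE 0.264). Lcn2, a secreted injury marker, was 1.72 to 4.86 CPM in Q and 1.35 to 3.32 CPM in R (0.66, SE 0.347, 0.42 without R replicate 2), and Havcr1, known as kidney injury molecule-1, was 0.101 to 1.62 CPM in Q and 0.342 to 0.920 CPM in R. Interferon response genes were above 0 for 11 of 14 (median 0.11, from 0.05 without Q replicate 2 to 0.19 without Q replicate 4). Usp18 gave a log2 fold change of 0.48 (SE 0.238) and Mx2 one of -0.44 (SE 0.343, -0.26 without R replicate 1).

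In metabolism, fatty acid oxidation genes were below 0 for 14 of 18 members (median -0.16). That median ran from -0.22 without R replicate 3 to -0.07 without Q replicate 5 or R replicate 2. Cpt1a, the carrier that admits fatty acids to mitochondria, was 374, 235, 352, 351 and 205 CPM in Q and 363, 416 and 334 CPM in R (log2 fold change -0.29, SE 0.199), or -0.17 without Q replicate 5. Cyp4a10, a fatty acid hydroxylase, gave a log2 fold change of -0.37 (SE 0.224) and Acaa1b, a peroxisomal thiolase with a close copy, one of -0.29 (SE 0.178). Glucose and ammonia genes were below 0 for 11 of 14 (median -0.10). Slc38a3, the glutamine carrier that feeds ammonia production, was 91.9, 50.4, 86.5, 102 and 46.1 CPM in Q and 113, 96.4 and 109 CPM in R. Q replicates 2 and 5 were the low values, and the log2 fold change was -0.49 (SE 0.213), or -0.36 without Q replicate 5. Slc5a1, a glucose carrier, had one of -0.18 (SE 0.126).

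Cholesterol synthesis genes were above 0 for 10 of 14 (median 0.08), and for 6 of 14 (median -0.10) without Q replicate 2. Hmgcs1, an early enzyme of the pathway, was 319, 311, 304, 257 and 333 CPM in Q and 246, 264 and 261 CPM in R (log2 fold change 0.25, SE 0.122). Msmo1 gave a log2 fold change of 0.50 (SE 0.255) that was 0.31 without Q replicate 2, and Sqle, squalene epoxidase, one of 0.25 (SE 0.138, 0.14 without R replicate 2). Oxidant defence and glutathione genes were below 0 for 11 of 14 (median -0.06, from -0.11 without R replicate 2 to -0.02 without R replicate 3). Cat, the catalase gene, was 771, 700, 677, 739 and 481 CPM in Q and 730, 852 and 821 CPM in R (-0.25, SE 0.119), or -0.15 without Q replicate 5, and Nqo1 and Hmox1 gave log2 fold changes of -0.19 (SE 0.133, -0.12 without R replicate 2) and 0.25 (SE 0.223).

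Mitochondrially encoded genes followed Q replicate 5. The estimate was below 0 for 12 of 13 with a median of -0.23, and the median was -0.02 without that library. mt-Co1, a subunit of cytochrome c oxidase, was 37850, 36432, 39311, 39248 and 13347 CPM in Q and 38977 to 41779 CPM in R. mt-Cytb was 5214 CPM in Q replicate 5 and 20329 to 22740 CPM in the other Q libraries. The log2 fold changes were -0.28 and -0.33, or -0.08 and -0.09 without it, and that of mt-Nd5 was -0.53, or -0.27 without it.

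All kidneys were taken in one window of the light phase, and clock and immediate early genes were read as a check on timing and handling. Clock genes were below 0 for 13 of 19 (median -0.05), with 9 of 19 (median 0.00) without Q replicate 1, Q replicate 5 or R replicate 2. Cry2 was 12.7, 15.2, 13.7, 21.9 and 13.8 CPM in Q and 16.1, 18.5 and 22.2 CPM in R (log2 fold change -0.29, SE 0.202, -0.16 without R replicate 3), and Nfil3, a repressor under clock control, had one of 0.52 (SE 0.475, 0.30 without R replicate 3). Immediate early genes were above 0 for 12 of 18 (median 0.08, from -0.04 without R replicate 1 to 0.38 without R replicate 3). Fosb was 0.778 to 1.12 CPM in Q and 0.244, 0.123 and 1.09 CPM in R, and Jund and Ier3 gave log2 fold changes of 0.30 (SE 0.250, 0.11 without Q replicate 5) and 0.23 (SE 0.239).

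Proximal tubules of male and female mice differ in many transporters and enzymes, and these sex-biased genes were compared too. Of 12 listed male-biased genes 8 were above 0 (median 0.03), with 4 of 12 (median -0.10) without Q replicate 5, 5 of 12 without Q replicate 3 and 4 of 12 without R replicate 1. Cyp2e1, a cytochrome P450 of small molecules, was 70.3, 28.3, 70.0, 93.0 and 70.9 CPM in Q and 91.1, 102 and 84.2 CPM in R (log2 fold change -0.47, SE 0.193), or -0.28 without Q replicate 2. Cyp4a12a, which has near-identical copies, was 1.0 to 1.72 CPM in Q and 1.90 to 3.86 CPM in R (-0.95, SE 0.530, -0.56 without R replicate 1). Slc22a28, described above, is also on this list and went the other way (0.56, SE 0.185). These members were named for the smallest p of the list in these libraries. Of 10 listed female-biased genes 8 were below 0 (median -0.08), or 5 (median -0.02) without R replicate 2. The sex bias of a listed gene is that of its list, and its own difference between the sexes in WT is not given here. Cyp2d9, a member of a cluster of close copies, was 13.4 to 18.1 CPM in Q and 22 to 26.1 CPM in R without overlap (-0.65, SE 0.316), Acmsd, an enzyme of tryptophan breakdown, gave a log2 fold change of 0.31 (SE 0.162) and Slc7a12, an amino acid carrier, one of -0.48 (SE 0.546, -0.30 without R replicate 2). Of all autosomal genes that differed at least 2-fold between the sexes in WT, the median of Q against R was 0.02 over the 307 higher in males and -0.06 over the 342 higher in females, with 0 called in each. The female WT side of that choice includes replicate 2, in which Xist was only 0.515 CPM.

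Male Q and male R levels did not enter the female log2 fold changes of the 24 genes. The male libraries did share the filter and the estimate of spread behind the p by which these genes were picked. Male Q replicate 4 stood apart among them, with a mitochondrial share of 7.74% against 9.98 to 11.2% in the other male Q libraries and a median correlation of 0.967 with its group. In males, 3 of the 12 genes higher in female Q were also above 0 in males, and 6 of the 12 lower ones were also below 0, where 52.6% of the 14415 genes with a mean of at least 1 CPM had the same sign in both sexes. Lrrc58 was above 0 in both, at 0.32 (SE 0.103) in females and 0.21 (SE 0.0877) in males, and Sowahb was below 0 in both, at -0.37 (SE 0.112) and -0.26 (SE 0.10). Chst15 was at -0.19 (SE 0.112) in males, Foxd2 at -0.17 (SE 0.234) and Ccn2 at -0.01 (SE 0.206). The male comparison called 0 genes (0%), and 721 (4.1%) had an unadjusted p under 0.05. Without male Q replicate 4 it again called 0, with 1501 of 17510 genes at that unadjusted level. Of the 24 genes, 4 of the 12 higher were then above 0 in males and 5 of the 12 lower below 0. Across the same 14415 genes the female and male log2 fold changes had a Pearson correlation of 0.0655 and a Spearman correlation of 0.0931, given as a description across genes that are not independent.

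**Figure D5:**
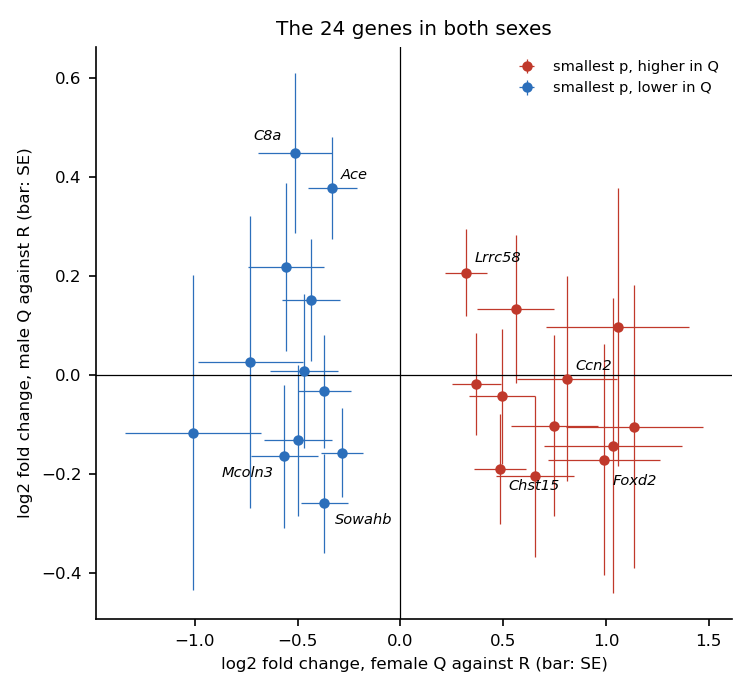
Log2 fold change of Q against R in males (vertical axis) against that in females (horizontal axis) for the 24 genes with the smallest p in females, with bars of 1 SE in each direction. Red genes are higher and blue genes lower in female Q. Of the red points 3 of 12 lie above the horizontal line at 0, and of the blue points 6 of 12 lie below it.

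The difference of the female and the male comparison was tested directly. The interaction of sex and Q against R called 0 genes (0%), and 558 (3.18%) had an unadjusted p under 0.05. That count was 1840 without male Q replicate 4 and 1359 without both that library and female Q replicate 5, with 0 called in each fit. The 4 genes given next were chosen after their interaction values were seen, and none of them passed. Ace gave a log2 fold change of -0.33 in females and 0.38 in males (interaction -0.71, SE 0.157, adjusted p = 0.9997). C8a was at -0.51 in females and 0.45 in males (interaction -0.96, SE 0.241), and Chst15 at 0.48 and -0.19 (interaction 0.67, SE 0.169). Rgcc, a regulator of the cell cycle that responds to complement, was 16.3, 20.6, 20.5, 12.1 and 22.4 CPM in female Q and 14, 11.9 and 12.7 CPM in female R. It gave log2 fold changes of 0.51 (SE 0.188) in females and -0.41 (SE 0.162) in males. Without male Q replicate 4 the interactions were -0.70 for Ace, -0.97 for C8a, 0.64 for Chst15 and 0.94 for Rgcc, each with an edgeR adjusted p of 0.446. Grap, added after that fit was seen, had a lower edgeR adjusted p in it, at 0.370 (interaction 1.07, SE 0.216).

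Female WT gives the unedited level beside both mimetics. Each comparison with WT shares libraries with the direct one, called 0 genes (0%) and is given only beside it. In female WT replicate 2 Xist was only 0.515 CPM, and its Y-linked genes summed to 0.468 CPM. The WT estimate lay between Q and R for 10 of the 12 higher genes and 11 of the 12 lower ones. It lay closer to Q for 9 and 10 of them and closer to R for 3 and 2. All of these genes were picked for their difference between Q and R in the same libraries. That choice by itself tends to place WT between the groups. The R mean also rests on fewer libraries than the Q mean, and no such counts over all tested genes are given here. The counts therefore cannot show which mimetic departs from WT, and this was not tested. The genes below were chosen after the WT values were seen. For Foxd2 the log2 fold change was 0.05 for Q against WT and -0.94 for R against WT. Larp6 had 0.08 and -1.06, Grap 0.09 and -0.57, and Slc22a28 -0.02 and -0.58. For these 4 the WT mean lay close to Q. Ccn2 had 0.71 for Q against WT and -0.10 for R, Tsc22d3 had 0.64 and -0.01, and Lrrc58 had 0.36 and 0.04. For these 3 the WT mean lay close to R. Mcoln3 lay between, at -0.18 for Q and 0.39 for R, as did Ace at -0.14 and 0.19.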

How the data were processed

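Polyadenylated RNA of whole kidneys was sequenced in 28 libraries, 8 of which were compared here. The deposited values are the authors' raw counts, whole numbers of fragments over the exons of each gene with no scaling. Per the file headers, they were made with featureCounts 2.0.1 on the Ensembl 107 annotation of GRCm39, with no option for strand or for reads that map to several places, so overlapping, antisense and near-identical genes cannot be told apart with certainty. SAMtools 1.6, DESeq2 1.38.3 and Trim Galore 0.6.7 are also in the submitters' processing notes, and the aligner is not given in the sources used here. No column was left unused. Rows without a symbol held 0.669% of counts, and 400 of them were among the genes tested.

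The analysis used edgeR 4.0.16 under R 4.3.3. filterByExpr on the 6 groups of sex and genotype kept 17573 genes holding 99.91% of counts. Libraries were scaled by TMM, and 1 robust quasi-likelihood model with a mean per group was fitted to all 28 libraries (22 residual degrees of freedom, square root of the common dispersion 0.176), since female R has 3. A gene was called where its p, adjusted by Benjamini and Hochberg's method across the 17573 genes, was under 0.05. CPM are TMM-scaled. The SE is the absolute log2 fold change over the square root of F, and 95% intervals rest on it. The test was checked on simulated data, whose values are not reported here. Apart from genes changed in female Q, that simulation used 1 base level per gene in all libraries. No library was made to stand apart in it. Named genes are every tested aquaporin, the 12 with the smallest p on each side among genes of at least 1 CPM, and up to 4 members with the smallest p of each list, leaving out unnamed and predicted genes. A few genes that the rule picks are not reported here. The 36 lists hold 461 genes. The comparison, the lists and the rule were chosen with earlier results of these data known. Alternatives were each library left out, both libraries that stand apart left out, Q replicates 1 to 3 alone, the 8 libraries alone, DESeq2 size factors, DESeq2 1.42.0, limma 3.58.1 voom with quality weights, no filter, a replicate block and the mitochondrial share as a covariate. They were applied to the lists after the data were seen. Leaving out male Q replicate 4 alone was also chosen after seeing the data. Reference sequence came from GENCODE M21 (GRCm38), while the counts rest on a later build.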

Additional observations from a re-analysis of the deposited data

Results flagged for a closer look

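In each set of 5 female Q libraries, the highest and the lowest value were set against the other 4 by Dixon's test at the 95% level, for the 119 genes picked by the naming rule and for summed levels. Of 128 sets, 17 had a value that stood apart, where about 1 in 20 would by chance in unselected sets of normally distributed values. Many of these genes were picked for a small p in these libraries. Several sets also overlap, as the mitochondrial ones do, and Fdx1 with the adrenal sum. How far 17 exceeds chance was therefore not measured. In 11 of the 17 the library was Q replicate 5. Its mitochondrial share was 3.94%, and mt-Cytb (5214 CPM) and mt-Co1 (13347 CPM) were low with it. It was also lowest in Synpo (51.6 CPM, others 65.7 to 70.1), Trpv5 (8.67 CPM, others 15.6 to 18.1) and Sirt2 (55.8 CPM, others 87.2 to 91.0). It was highest in Mgp (132 CPM, others 59.2 to 79.1), Fdx1 (137 CPM), Hbb-bt (59.0 CPM), Apoa1 (5.04 CPM) and the summed adrenal markers (140 CPM, others 66.7 to 76.7), of which Fdx1 made up nearly all.

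Q replicate 2 was lowest in Egf (1258 CPM, others 1601 to 1703) and highest in Elf5 (7.17 CPM, others 3.09 to 3.58). Q replicate 4 was highest in Cry2 (21.9 CPM, others 12.7 to 15.2) and lowest in Tsc22d3 (25.2 CPM, others 38.4 to 41.4) and Acmsd (134 CPM, others 180 to 186). Q replicate 3 was highest in Zbtb16 (15.3 CPM, others 1.17 to 4.39). The difference of Q against R between the sexes was called in 0 genes.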

How the results depend on the processing

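In each setting listed under the processing, 0 genes were called between female Q and R. The interaction was fitted in 4 settings (all libraries, the replicate block, without male Q replicate 4, and without it and female Q replicate 5) and called 0 in each. The count at an unadjusted p under 0.05 (532 for Q against R, 558 for the interaction) moved by over 1.5 times to 1314 with no filter on low counts, 894 with voom and, for the interaction, to 1840 without male Q replicate 4 (chosen after seeing the data) and 1359 without male Q replicate 4 and female Q replicate 5. It ranged from 333 to 872 as single libraries were left out. Whether the replicate numbers pair the libraries is not stated. Deviations from the group mean correlated at -0.0315, -0.261 and -0.0883 for same-numbered Q and R libraries. Those of other pairs correlated at -0.140 to 0.151. With so few libraries per group, these values cannot decide whether a pairing exists. The fit with a replicate block also called 0, with 439 genes at that unadjusted level and 485 in the interaction. The mitochondrial difference ranged from -2.32 to -0.401 points as single libraries were left out.

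Of 2021 values of genes picked by the naming rule under alternatives, 1999 kept their direction and 22 reversed. Many of these genes were picked for a small p in these libraries, and every alternative reuses most of the libraries. A kept direction was therefore in part fixed by the choice. No gene came near the threshold in the main fit, where the smallest edgeR adjusted p was 0.998. As single libraries were left out, Aqp8 ran from -0.26 to 0.37, Aqp2 from -0.43 to 0.0084, Aqp5 from -0.31 to 1.59, Hbb-bt from -0.089 to 1.0, Apoa1 from -0.35 to 0.89 and Ier3 from -0.026 to 0.54. Without Q replicate 5 Hbb-bt was -0.089 and Apoa1 -0.35, and without R replicate 2 Ier3 was -0.026. Aqp8 was -0.015 with the block and Aqp5 -0.084 with voom. Hbb-bt and Apoa1 were -0.092 and -0.35 without both libraries that stand apart, -0.048 and -0.53 with Q replicates 1 to 3 alone, -0.036 and -0.34 with the mitochondrial covariate, and -0.25 and -0.24 with voom. Jund was -0.016 with that covariate. The cause was not tested. Of 612 list counts 101 moved by over 1.5 times. DESeq2 gave 2 genes no adjusted p. Depth limits genes under 1 CPM, of which 7.09% had an interval within 2-fold.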
